A study of Homo sapiens with 6 samples.

Results

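The 10 genes described here encode the calcineurin and NFAT arm of T-cell receptor signalling. They are the transcription factors NFATC1, NFATC2, NFATC3, NFATC4 and NFAT5, the calcineurin subunits PPP3CA, PPP3CB, PPP3CC and PPP3R1, and the calcineurin inhibitor RCAN1. They were picked by gene symbol as parts of this pathway, and no measured value enters that rule. The members were, however, proposed with earlier results of these data known. Each of the 10 symbols matched a single gene among 60611 measured genes. The libraries came from MOLT-4, a human leukemia line of T-cell origin (T-cell acute lymphoblastic leukemia, T-ALL) that is established in culture and was grown in RPMI1640 with fetal bovine serum. Polyadenylated RNA was sequenced from 3 libraries of the CRISPR knockout control, called wild type, and from 3 libraries labelled IK-KO, in which CRISPR-Cas was directed at IKZF1, the gene of the DNA-binding protein IKAROS. The comparison asks which transcripts of this pathway differ between T-ALL cells edited in IKZF1 and their control.

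Some features limit these groups as a model of IKAROS loss. The edited line and its control were bought as such, the labels name no clone, and the loss of IKAROS cannot be told apart from any further difference between edited line and control. The sources do not say that the 3 libraries of a group came from separate cultures, so the p-values measure only the spread between these libraries, which may be technical. IKZF1 RNA itself was not lower in the edited line. It measured 134, 124 and 105 FPKM (fragments per kilobase of transcript per 1000000 mapped fragments) in wild type but 207, 260 and 207 FPKM in IK-KO, a rise of 0.89 on the log2 scale (SE 0.12, limma adjusted p = 0.00295). The IK-KO libraries are therefore named by their label only. RNA values do not measure the protein, and the study's methods state that the knockout was checked by PCR and by protein blot. A supplementary figure of the study shows an IKAROS blot of different knockout clones. The labels do not say which clone gave these libraries. The direction of each result below rests on the labels.

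In T cells, a rise in intracellular calcium loads calmodulin, which switches on calcineurin, a phosphatase made of a catalytic A subunit (PPP3CA, PPP3CB or PPP3CC) and a regulatory B subunit (PPP3R1). Calcineurin removes phosphates from NFATC1 to NFATC4, which then enter the nucleus and act on cytokine genes such as IL2, often together with AP-1 proteins. Kinases return NFAT to the cytoplasm, RCAN1 holds calcineurin in check, and NFAT5 lies apart, since it responds to osmotic stress and lacks the calcineurin docking region. The drugs cyclosporin A and tacrolimus act by blocking calcineurin.

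Transcripts of the NFAT and calcineurin genes split in 3 ways in the libraries labelled IK-KO. NFATC2 fell from a mean of 4.35 FPKM to 0.760 FPKM, a level 5.72 times as high in wild type as in IK-KO. RCAN1 fell more mildly, and PPP3CA rose. The other 6 tested members did not pass the test, and NFATC4 was at or near 0 throughout. A change is called here when its limma adjusted p is under 0.05. Of the 10 members, 9 had a mean of at least 1 FPKM and were tested, and 3 of the 9 (33.3%) were called, 2 lower and 1 higher. Across the 12652 tested genes 19.9% were called (10.1% higher and 9.75% lower in IK-KO), so called genes were common in this comparison and a count of 3 in 9 says little about the members as a set. The median absolute log2 change was 0.19 for the 9 members and 0.18 for all tested genes.

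**Figure D1:**
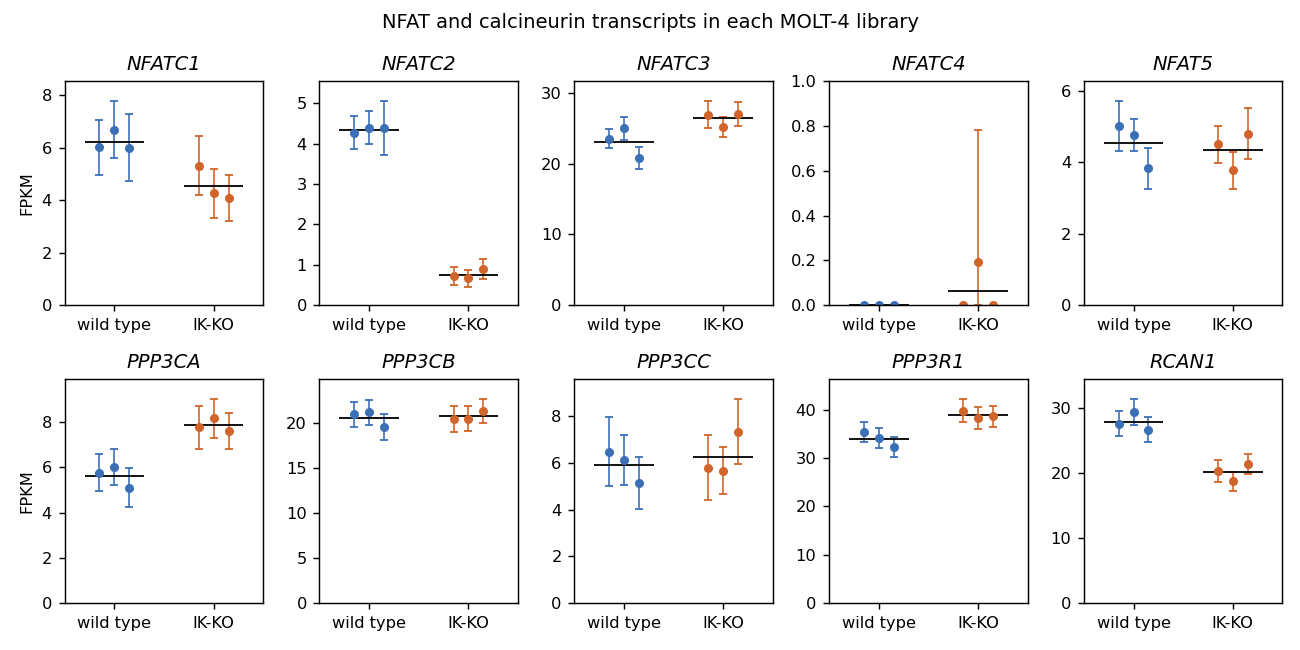
FPKM of each of the 10 members in the 3 wild type and the 3 IK-KO libraries, 1 point per library and 1 panel with its own axis per gene, whiskers at the deposited confidence bounds and horizontal lines at the group means. NFATC2 lies between 4.27 and 4.39 FPKM in wild type and between 0.667 and 0.896 FPKM in IK-KO, with no overlap.

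NFATC2 (ENSG00000101096, GRCh38 chr20:51386957-51562831, minus strand) encodes NFAT1, the NFAT protein that is abundant in the cytoplasm of resting peripheral T cells. It measured 4.27, 4.39 and 4.38 FPKM in wild type replicates 1 to 3 and 0.717, 0.667 and 0.896 FPKM in IK-KO replicates 1 to 3. The groups lay far apart, and each group was tight. The group means were 4.35 ± 0.0674 FPKM (SD, n = 3) and 0.760 ± 0.120 FPKM (SD, n = 3), a level 82.5% lower in IK-KO. On the log2(FPKM + 1) scale, on which changes at low FPKM come out too small, NFATC2 fell by 1.61 (SE 0.13, 95% interval of the change -1.91 to -1.30, limma adjusted p = 0.000347). By absolute size this change ranked 183 among the 12652 tested genes. A called change of at least 2-fold on this scale was found in 3.19% of tested genes and a called fall of that size in 2.1%, and NFATC2 was the only member among them. The files also give confidence bounds for each library's FPKM. The lowest wild type bound, 3.72 FPKM, stood above the highest IK-KO bound, 1.14 FPKM.

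No other gene around NFATC2 was called lower. Within 2 Mb of NFATC2, 19 other genes were tested, their median log2 change was 0.05, and 3 were called, all of them higher. Over all tested genes 19.9% were called and 9.75% were called lower, so these counts say little about this stretch. The nearest of the 3 called neighbours was ATP9A, a phospholipid flippase gene, which rose from a mean of 2.16 to 4.58 FPKM (log2 change 0.81, SE 0.11, limma adjusted p = 0.00338). CEBPB, the gene of a bZIP transcription factor, lies in the same stretch and is described with the nuclear partners below. After subtraction of the shift of the 50 nearest tested genes, the change of NFATC2 was -1.63.

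**Figure D2:**
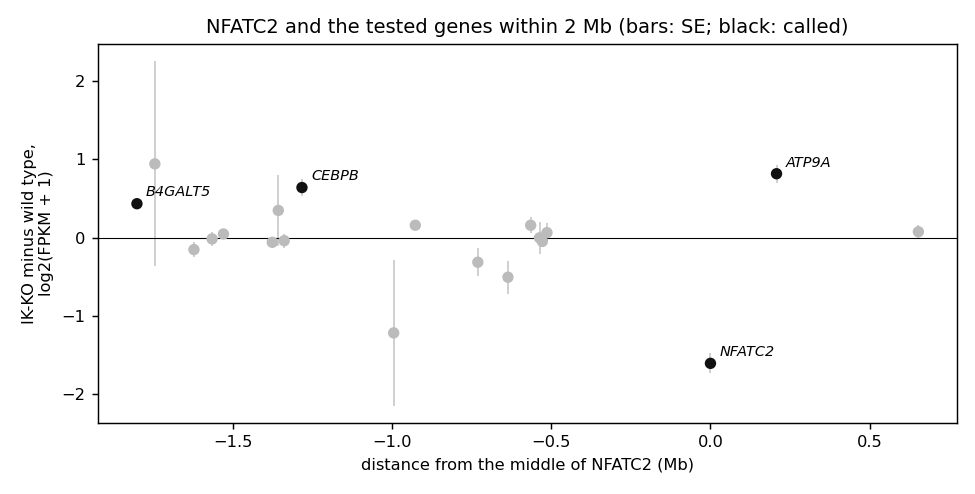
Change between IK-KO and wild type on the log2(FPKM + 1) scale for NFATC2 and the 19 tested genes within 2 Mb, against the distance of each gene from the middle of NFATC2 in megabases, with bars for the SE, called genes in black and others in grey. NFATC2 lies at -1.61, while the 3 called neighbours (B4GALT5, CEBPB and ATP9A) lie above 0.

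NFATC1 (ENSG00000131196, chr18:79395856-79529325, plus strand) encodes NFAT2, which is known to amplify its own transcription in activated T cells. It measured 6.01, 6.68 and 6.001 FPKM in wild type and 5.31, 4.26 and 4.09 FPKM in IK-KO. All 3 IK-KO libraries lay below all wild type libraries, but the log2 change of -0.39 (SE 0.12, 95% interval -0.66 to -0.11) did not pass the test, with a limma adjusted p of 0.0595. Groups that did not overlap were found in 39% of all tested genes and in 6 of the 9 members, 3 of which were not called. NFATC1 crossed the threshold when libraries were scaled by median ratios or to a common sum, or when IK-KO replicate 1 was left out (log2 change -0.48, limma adjusted p = 0.0401).

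NFATC3 (ENSG00000072736, chr16:68084751-68229259, plus strand), which encodes NFAT4 and is the NFAT gene best known from thymocytes, had the highest level of the NFAT genes in both groups. It measured 23.5, 24.998 and 20.8 FPKM in wild type and 26.9, 25.2 and 27.1 FPKM in IK-KO. The IK-KO libraries lay above the wild type libraries, although IK-KO replicate 2 lay close to wild type replicate 2. The log2 change of 0.19 (SE 0.08, limma adjusted p = 0.155) did not pass the test. Several noncoding genes, a pseudogene and the end of ESRP2 overlap NFATC3, and their levels were at most 2.23 FPKM in any library.

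NFATC4 and NFAT5 complete the family. NFATC4 (ENSG00000100968, chr14:24365673-24379604, plus strand), which is known from heart and nervous tissue, had 0 FPKM in 5 libraries. It had 0.191 FPKM in IK-KO replicate 2 with a lower bound of 0, and was not tested. NFAT5 (ENSG00000102908, chr16:69565094-69704666, plus strand) measured 5.01, 4.77 and 3.82 FPKM in wild type and 4.50, 3.77 and 4.79 FPKM in IK-KO. The groups of NFAT5 overlapped, with a log2 change of -0.05, a 95% interval of -0.36 to 0.27 and a limma adjusted p of 0.852. A noncoding gene on the same strand, AC012321.1, overlaps the end of NFAT5. It measured 2.67, 2.27 and 2.26 FPKM in wild type and 2.99, 2.43 and 3.67 FPKM in IK-KO. The part of AC012321.1 in the NFAT5 values was not tested. The genes known to be switched on by NFAT5 under osmotic stress numbered 11, of which 7 were tested. Limma called 0 of them, beside 19.9% of all tested genes, and 1 had an unadjusted p under 0.05.

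As a group, the 4 NFATC genes differed in makeup more than in sum. The FPKM of NFATC1 to NFATC4 added up to 33.8, 36.1 and 31.2 in wild type and 33.0, 30.3 and 32.0 in IK-KO, and these sums overlapped. NFATC2 supplied 12.6%, 12.2% and 14.1% of the sum in wild type and 2.17%, 2.2003% and 2.80% in IK-KO. The share of NFATC3 was 68.5% ± 1.60 (SD, n = 3) in wild type and 83.1% ± 1.36 (SD, n = 3) in IK-KO, and that of NFATC1 was 18.5% ± 0.736 and 14.3% ± 1.69. The ratio of NFATC3 to NFATC2 thus stood at 5.32 ± 0.504 in wild type and at 35.2 ± 4.32 in IK-KO. FPKM is scaled per transcript length, so these genes can be set side by side, but the shares rest on the same values as the tests above and carry no test of their own. In bulk RNA, fewer cells expressing a gene and less of its RNA per cell cannot be told apart.

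**Figure D3:**
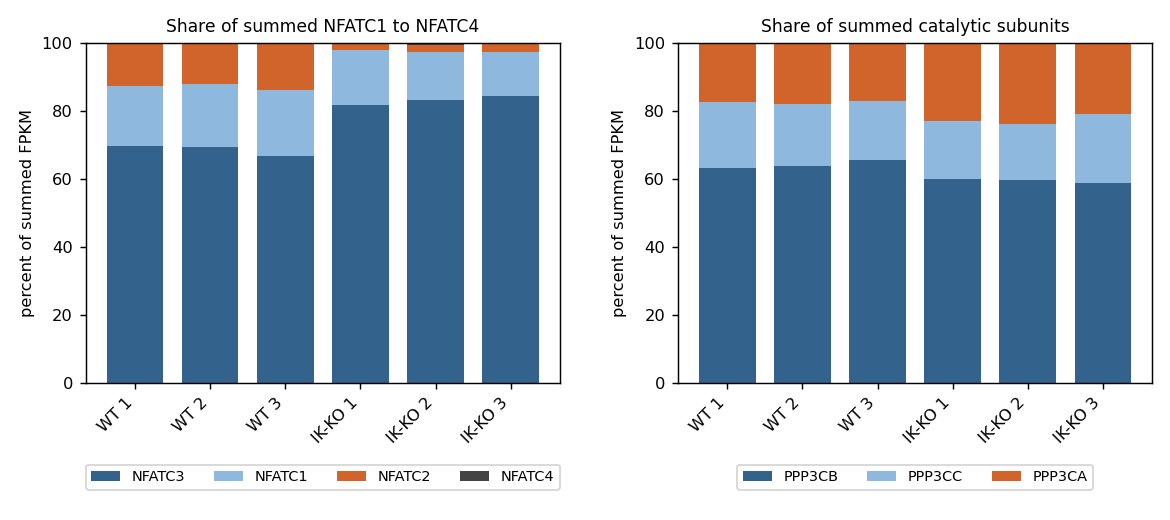
Share of each NFATC gene in the summed FPKM of NFATC1 to NFATC4, and of each catalytic subunit in the summed FPKM of PPP3CA, PPP3CB and PPP3CC, in percent, 1 stacked bar per library from 0 to 100. The NFATC2 segment narrows from 12.2% or more in wild type to 2.80% or less in IK-KO, and the PPP3CA segment widens.

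Among the calcineurin genes only PPP3CA was called. PPP3CA (ENSG00000138814, chr4:101023409-101348278, minus strand) encodes the alpha isoform of the catalytic subunit. It measured 5.76, 6.02 and 5.10 FPKM in wild type and 7.78, 8.17 and 7.63 FPKM in IK-KO. All IK-KO libraries lay above all wild type libraries. The mean rose from 5.63 ± 0.472 to 7.86 ± 0.278 FPKM (SD, n = 3 each), a level 39.6% higher, with a log2 change of 0.42 (SE 0.09, 95% interval 0.20 to 0.64, limma adjusted p = 0.0202). This call was close to the threshold. It was lost when IK-KO replicate 1, 2 or 3 or wild type replicate 1 or 3 was left out (limma adjusted p = 0.0598, 0.0733, 0.0539, 0.0566 and 0.05002), while the change then lay between 0.36 and 0.44 on the log2 scale. The start of PPP3CA overlaps an antisense noncoding gene, AP001816.1, which measured 1.46, 4.13 and 1.71 FPKM in wild type and 0.917, 1.66 and 1.47 FPKM in IK-KO, and its part in the PPP3CA values was not tested.

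The other catalytic isoforms gave no called change. PPP3CB (ENSG00000107758, chr10:73436428-73496024, minus strand), the beta isoform, was the most abundant of the 3, with 20.9, 21.2 and 19.5 FPKM in wild type and 20.4, 20.4 and 21.3 FPKM in IK-KO. Its log2 change was 0.01, and the 95% interval of -0.14 to 0.16 was the narrowest of the catalytic genes (limma adjusted p = 0.927). PPP3CC (ENSG00000120910, chr8:22440819-22541142, plus strand), the gamma isoform, measured 6.47, 6.11 and 5.14 FPKM in wild type and 5.80, 5.67 and 7.34 FPKM in IK-KO. Its groups overlapped, and the 95% interval of its log2 change was -0.23 to 0.38 (log2 change 0.07, limma adjusted p = 0.752). This interval overlapped that of PPP3CA, and a difference between the isoforms was not tested.

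PPP3R1 (ENSG00000221823, chr2:68178857-68256237, minus strand) encodes the calcium-binding regulatory subunit that the catalytic isoforms share. It had the highest level of all 10 members in both groups. It measured 35.4, 34.0 and 32.3 FPKM in wild type and 39.8, 38.3 and 38.6 FPKM in IK-KO, and the groups did not overlap. The log2 change of 0.19 (SE 0.06, 95% interval 0.06 to 0.33) did not pass the test (limma adjusted p = 0.0546), and it passed under median-ratio scaling and quantile normalization. The 3 catalytic genes summed to 33.2, 33.3 and 29.8 FPKM in wild type and 34.0, 34.3 and 36.2 FPKM in IK-KO, of which PPP3CA made up 17.5% ± 0.482 and 22.6% ± 1.42 (SD, n = 3 each). The ratio of the catalytic sum to PPP3R1 was 0.946 ± 0.0296 and 0.896 ± 0.0426 (SD, n = 3 each), and its groups overlapped.

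RCAN1 (ENSG00000159200, chr21:34513142-34615113, minus strand) encodes regulator of calcineurin 1, which binds calcineurin and inhibits it. One of its internal starts is itself known as a target of NFAT, so its RNA is often read as a record of calcineurin signalling. It measured 27.5, 29.3 and 26.6 FPKM in wild type and 20.3, 18.7 and 21.4 FPKM in IK-KO. All 3 IK-KO libraries lay below all wild type libraries, and the bounds did not meet, with 24.6 FPKM the lowest in wild type and 22.9 FPKM the highest in IK-KO. The mean fell from 27.8 ± 1.39 to 20.1 ± 1.37 FPKM (SD, n = 3 each), which is 27.7% lower, with a log2 change of -0.45 (SE 0.07, 95% interval -0.62 to -0.28, limma adjusted p = 0.00636). Set against the summed catalytic subunits, RCAN1 stood at 0.868 ± 0.0332 in wild type and at 0.577 ± 0.0286 in IK-KO (SD, n = 3 each). Within 2 Mb of RCAN1, 29 other genes were tested, and the median of their log2 changes was 0.01. Of these neighbours 2 were called, both higher, beside 19.9% called over all tested genes.

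**Figure D4:**
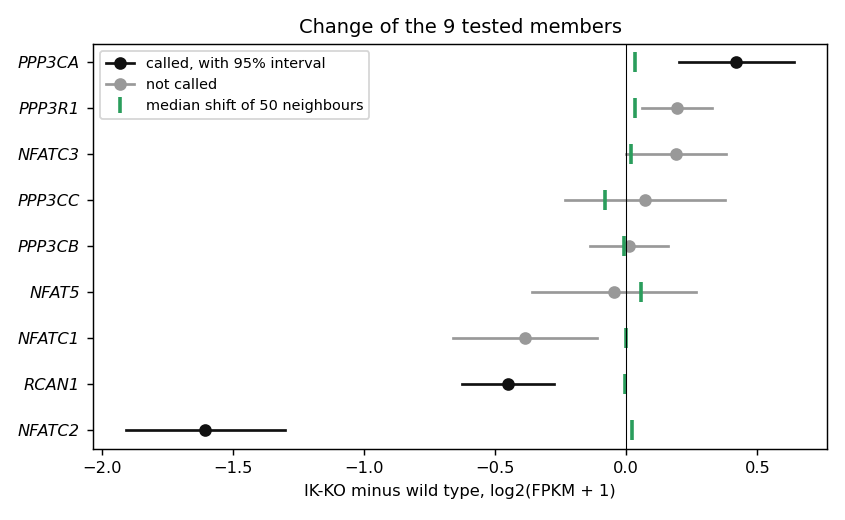
Change between IK-KO and wild type on the log2(FPKM + 1) scale for the 9 tested members, with 95% intervals from limma, called members in black, others in grey, and green ticks at the median shift of the 50 nearest tested genes. The interval of NFATC2 runs from -1.91 to -1.30 and that of RCAN1 from -0.62 to -0.28, both below 0, and that of PPP3CA from 0.20 to 0.64 lies above 0.

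In order of level, wild type cells carried PPP3R1, RCAN1, NFATC3, PPP3CB, NFATC1, PPP3CC, PPP3CA, NFAT5, NFATC2 and NFATC4. In that order NFATC3 and PPP3CB, NFATC1 and PPP3CC, PPP3CC and PPP3CA, and NFAT5 and NFATC2 were neighbours whose libraries overlapped. In IK-KO the order was PPP3R1, NFATC3, PPP3CB, RCAN1, PPP3CA, PPP3CC, NFATC1, NFAT5, NFATC2 and NFATC4, with overlap between PPP3CB and RCAN1 and between NFATC1 and NFAT5. By mean level, RCAN1 moved from the second to the fourth place, and PPP3CA from the seventh to the fifth. In wild type the libraries of PPP3CA also overlapped those of NFATC1, and places within an overlap are not resolved.

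NFATC2 and RCAN1, the members that fell, each have annotated transcripts with different starts, and a gene-level FPKM sums over them. The 250 bases before such starts are shown for these genes because they differ in the short DNA core that NFAT proteins bind. The sequences are those of RefSeq on GRCh38.p14, which held start windows for 6 of the 10 members, 15 windows in all. Capitals mark each GGAAA or its reverse complement TTTCC, the NFAT core on either strand, and each line runs 5′ to 3′ on the gene's own strand and ends at the base before the start.
NFATC2, outer start, chr20:51562840-51563089, minus strand: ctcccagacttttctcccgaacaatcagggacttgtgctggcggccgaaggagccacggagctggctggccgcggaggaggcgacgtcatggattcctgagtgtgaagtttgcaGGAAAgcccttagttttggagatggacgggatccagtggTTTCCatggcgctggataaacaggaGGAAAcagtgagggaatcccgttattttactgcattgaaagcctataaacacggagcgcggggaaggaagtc
NFATC2, inner start, chr20:51542720-51542969, minus strand: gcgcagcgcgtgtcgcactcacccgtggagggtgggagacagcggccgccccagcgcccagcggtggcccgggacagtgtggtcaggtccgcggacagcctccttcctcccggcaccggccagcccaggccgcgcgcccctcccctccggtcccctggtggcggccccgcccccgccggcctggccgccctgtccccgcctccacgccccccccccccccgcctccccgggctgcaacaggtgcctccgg
RCAN1, outer start, chr21:34615114-34615363, minus strand: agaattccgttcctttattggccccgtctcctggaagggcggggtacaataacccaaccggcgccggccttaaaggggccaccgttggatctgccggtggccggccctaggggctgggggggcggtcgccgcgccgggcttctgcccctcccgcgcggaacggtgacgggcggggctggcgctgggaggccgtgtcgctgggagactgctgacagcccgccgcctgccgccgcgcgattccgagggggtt
RCAN1, internal start, chr21:34526823-34527072, minus strand: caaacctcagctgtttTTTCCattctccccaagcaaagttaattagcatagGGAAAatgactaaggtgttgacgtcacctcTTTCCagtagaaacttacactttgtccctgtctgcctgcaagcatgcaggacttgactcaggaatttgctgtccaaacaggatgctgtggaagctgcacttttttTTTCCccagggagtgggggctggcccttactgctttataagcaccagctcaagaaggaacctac

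The outer NFATC2 window held 3 NFAT cores, at positions -136, -97 and -72 from the start, while the inner window, at 80.8% GC, held 0. The internal RCAN1 window held 4 cores, at -234, -199, -169 and -64, while the outer RCAN1 window held 0. This internal start is 1 of 5 inside RCAN1, was chosen for display after its matches were seen, and the other 4 also held 0. Of the 15 windows of the members, 9 held 0 cores, 4 held 1 and only the 2 described above held 3 or more. Of the 35116 RefSeq start windows of this length, 55.65% held at least 1 such core, 7.116% at least 3 and 1.871% at least 4. The core TGGGAA or its reverse complement TTCCCA, a form that IKAROS is known to bind, was found in 20.85% of all windows and in 0 of the 15 windows of the members. The sequence TGGGAAA would hold both cores. A match is a stretch of letters and not a binding site, its absence from these windows says nothing of the rest of the gene, and the FPKM values do not tell which start was used.

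The other genes of the pathway were read from 6 lists of 112 genes. Of these, 73 were tested and 21 were called, 12 lower and 9 higher (28.8% called, beside 19.9% of all tested genes). The median log2 change of the 73 genes was 0.02, as it was over all tested genes. The lists were written with earlier results of these data known, so their counts are a description.

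**Figure D5:**
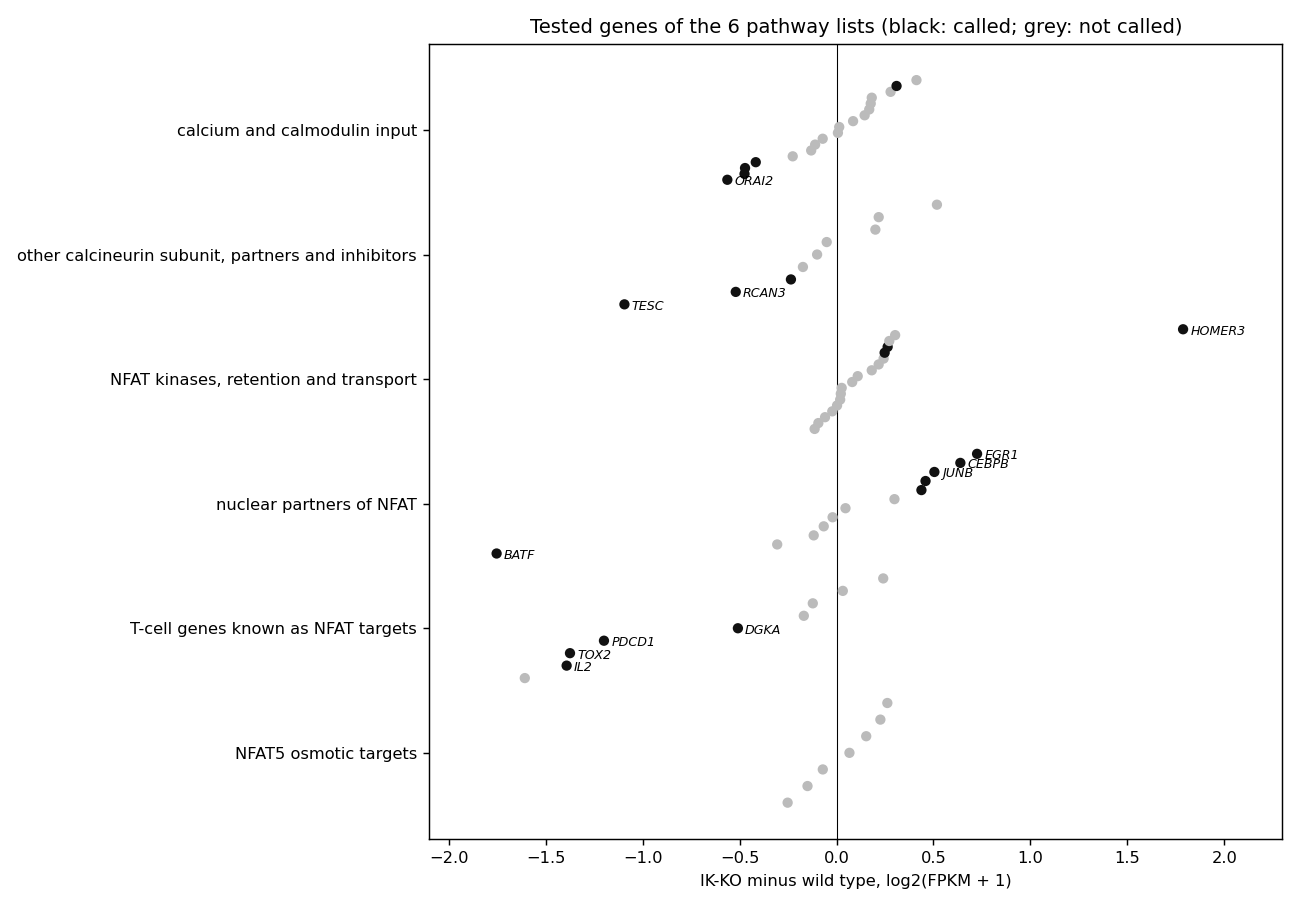
Change between IK-KO and wild type on the log2(FPKM + 1) scale for the 73 tested genes of the 6 pathway lists, 1 point per gene and 1 row per list, called genes in black and others in grey. The 4 called genes among the T-cell targets of NFAT (IL2, TOX2, PDCD1 and DGKA) lie left of 0, and HOMER3 lies farthest to the right at 1.79.

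Upstream of calcineurin, 18 of 19 genes for calcium entry, storage and calmodulin were tested. Of these, 5 were called (27.8%, beside 19.9% of all tested genes), 4 lower and 1 higher. ORAI2, a pore subunit of store-operated calcium channels, measured 41.9, 45.01 and 35.8 FPKM in wild type and 25.9, 28.1 and 27.8 FPKM in IK-KO (log2 change -0.56, SE 0.09, limma adjusted p = 0.00583). ATP2A3, the SERCA3 pump that returns calcium to the endoplasmic reticulum, fell from 116 ± 1.82 to 83.4 ± 2.84 FPKM (SD, n = 3 each). The fall of ITPR3, an inositol trisphosphate receptor of the endoplasmic reticulum, was by 0.47 on the log2 scale, in a stretch of chromosome 6 whose 50 nearest genes were shifted up by 0.24. STIM1, the calcium sensor that opens ORAI channels, fell by 0.42 (limma adjusted p = 0.0331), and this call was lost in 7 of 15 alternatives, including those without IK-KO replicate 1 or 3 or any wild type replicate (adjusted p up to 0.106). ATP2B4, a plasma membrane calcium pump, rose by 0.31 and was not called once the shift of its neighbours was subtracted (limma adjusted p = 0.0742). The channel gene ORAI1 was not called (log2 change 0.18, limma adjusted p = 0.102).

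Of the other calcineurin subunits, binding partners and inhibitors, 9 of 12 were tested. Limma called 3 of them (33.3%, beside 19.9% of all tested genes), all lower. TESC, the gene of tescalcin, an EF-hand calcium-binding protein related to the regulatory subunit, measured 60.1, 62.7 and 62.9 FPKM in wild type and 25.8, 31.6 and 28.3 FPKM in IK-KO (log2 change -1.09, SE 0.08, limma adjusted p = 0.000205). RCAN3, a relative of RCAN1 in the same inhibitor family, measured 13.1, 14.9 and 11.8 FPKM in wild type and 9.24, 8.36 and 9.12 FPKM in IK-KO (log2 change -0.52, SE 0.10, limma adjusted p = 0.0118). RCAN1 and RCAN3 were thus both lower, while RCAN2 was under the filter. CABIN1, another calcineurin inhibitor, fell by 0.24 and lost its call in 8 of 15 alternatives, among them each of the 6 that left out a library (limma adjusted p up to 0.0956). FKBP1A and PPIA, whose proteins bind tacrolimus and cyclosporin A, were not called.

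Of 20 genes for the kinases, retention and transport of NFAT, 18 were tested. Limma called 3 of them, all higher, a share of 16.7% that lies below the 19.9% of all tested genes. HOMER3, a scaffold protein that competes with calcineurin for NFAT, measured 0.249, 0.893 and 0.785 FPKM in wild type and 4.45, 4.84 and 4.45 FPKM in IK-KO, with no overlap (log2 change 1.79, SE 0.19, limma adjusted p = 0.00101). The casein kinase genes CSNK1A1 and CSNK1E, whose products phosphorylate NFAT, rose by 0.26 and 0.25 on the log2 scale (limma adjusted p = 0.0156 and 0.0116). The call of CSNK1A1 was lost with the replicate block and without IK-KO replicate 1 or 3 or wild type replicate 1 (adjusted p 0.0518 to 0.0577). GSK3A and GSK3B, kinases known for export of NFAT from the nucleus, were not called. Their log2 changes were 0.18 and 0.27 (limma adjusted p = 0.0529 and 0.0945).

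Among genes whose proteins join NFAT on DNA, 12 of 21 were tested. Limma called 6 of them (50%, beside 19.9% of all tested genes), 5 higher and 1 lower. BATF, a bZIP protein that pairs with JUN proteins, measured 5.03, 6.70 and 6.47 FPKM in wild type and 1.28, 1.09 and 0.901 FPKM in IK-KO (log2 change -1.75, SE 0.15, limma adjusted p = 0.00042). CEBPB measured 11.7, 10.3 and 11.1 FPKM in wild type and 19.6, 18.5 and 15.4 FPKM in IK-KO (log2 change 0.64, SE 0.10, limma adjusted p = 0.00615). JUNB and JUND, AP-1 subunits, rose by 0.50 and 0.46, and EGR1, an immediate early zinc finger factor, rose by 0.72 from a mean of 0.659 FPKM. The calls of EGR1, JUNB and JUND were lost in 8, 7 and 5 of 15 alternatives, with limma adjusted p up to 0.108, 0.110 and 0.0795, including every alternative without a library other than IK-KO replicate 3 for EGR1 or IK-KO replicate 1 for JUNB, and those without any IK-KO replicate or wild type replicate 2 for JUND. The sixth called gene was GATA3, named here after its values were seen, which rose by 0.44 (limma adjusted p = 0.00729). FOS, FOSB, FOSL1, FOSL2, MAF, IRF4, TBX21, FOXP3 and MEF2C were under the filter.

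Of 29 T-cell genes known as targets of NFAT, 20 were under the filter, 10 of them at 0 in every library. Of the 9 tested, 4 were called (44.4%, beside 19.9% of all tested genes), all lower. The filter takes the mean over all 6 libraries. IL2, PDCD1 and IL4 had IK-KO means of 0.651, 0.996 and 0 FPKM, and passed it through wild type. For such genes a lower level is partly built into the filter, so the count and its direction are a description. IL2, the T-cell growth factor gene and the classic NFAT target, measured 3.70, 3.23 and 3.08 FPKM in wild type and 0.684, 0.713 and 0.556 FPKM in IK-KO. Its groups lay apart, with the lowest wild type bound at 2.10 FPKM and the highest IK-KO bound at 1.25 FPKM (log2 change -1.39, SE 0.14, limma adjusted p = 0.000854). TOX2, an HMG-box factor of stimulated T cells, measured 5.82, 6.99 and 5.78 FPKM in wild type and 1.48, 2.17 and 1.70 FPKM in IK-KO (log2 change -1.38, SE 0.14, limma adjusted p = 0.000854). DGKA, a diacylglycerol kinase linked to T-cell anergy, fell from 38.1 ± 1.84 to 26.5 ± 1.54 FPKM (SD, n = 3 each). Its lowest wild type bound, 11.9 FPKM in replicate 1, lay under its highest IK-KO bound, 31.7 FPKM. PDCD1, which encodes the inhibitory receptor PD-1, measured 4.37, 3.89 and 2.42 FPKM in wild type and 1.61, 0.803 and 0.572 FPKM in IK-KO. The bounds of PDCD1 overlapped too, with 0.990 FPKM the lowest in wild type and 3.67 FPKM the highest in IK-KO. The call of PDCD1 (limma adjusted p = 0.0169) was lost in 5 of 15 alternatives, 4 of them without IK-KO replicate 2 or 3 or wild type replicate 1 or 2 (adjusted p 0.0536 to 0.0618). IL4 had 0, 7.39 and 2.38 FPKM in wild type while every IK-KO library listed it at 0, which did not pass the test (limma adjusted p = 0.151). IFNG was at 0 in every library, and CD40LG was at most 0.172 FPKM in any library, so neither was tested.

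T-lineage markers were present in all libraries. Of 13 T-lineage and T-ALL markers, 11 were at 1 FPKM or more in all 6 libraries. The sums over the 13 overlapped (1336 to 1399 FPKM in wild type and 1196 to 1372 FPKM in IK-KO), but most single markers did not. For 8 of the 13 (CD2, CD5, CD7, CD4, CD8A, CD1E, TRAC and TAL1) all IK-KO libraries lay below all wild type libraries, and for 3 (CD3D, CD1A and PTCRA) they lay above. Groups without overlap were also found in 39% of all tested genes, and no test of single markers is given here. CD2, for example, was at 58.9 to 63.7 FPKM in wild type and at 4.98 to 5.39 FPKM in IK-KO, and CD1A at 47.3 to 53.1 FPKM and 91.5 to 96.9 FPKM. The part of these marker differences in the values of the NFAT and calcineurin genes was not tested. B-cell markers summed to at most 2.19 FPKM, myeloid markers to at most 0.571 FPKM and erythroid markers to at most 0.612 FPKM, with CD33, HBB and EPCAM at 0. Of the 4 epithelial and stromal markers PECAM1 alone reached 1 FPKM in all libraries, and that list summed to 15.9 to 18.4 FPKM in wild type and 17.6 to 21.6 FPKM in IK-KO. Confidence bounds gave relative library depths between 0.904 and 1.08 of the mean, with overlap of the groups.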

How the data were processed

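Polyadenylated RNA of MOLT-4 was measured in 3 wild type and 3 IK-KO libraries, grouped by the labels. The deposited files hold gene-level FPKM with confidence bounds, already scaled by the authors for transcript length and depth. The submitters' processing notes name STAR 2.6.1c, Cufflinks 2.2.1, HOMER 4.10 and hg38. The annotation and strand setting are not given in the sources used here, so antisense and overlapping genes cannot be separated, and the human and mouse steps named in the study's methods could not be matched to these tables. Of 60640 gene identifiers per table, 110 on more than 1 row were summed, and 29 with a failed estimate were left out. All 49701 identifiers shared with GENCODE 44 lay at the same GRCh38 position. Coordinates count from 1.

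The groups were compared by limma (version 3.58.1, R 4.3.3) fitted to log2(FPKM + 1) for the 12652 genes whose mean was 1 FPKM or more, with lmFit and eBayes (trend on), two-sided p-values and adjustment by Benjamini and Hochberg. A gene under 1 FPKM in 1 group can pass this filter through the other group. NFATC2, IL2, PDCD1 and IL4 passed in this way through wild type, and HOMER3 and EGR1 through IK-KO. No counts are given, so no count model was used. An exact permutation test of 3 against 3 libraries cannot go below p = 0.1 and was not used. The study's 2-sample test was replaced because limma shares the spread over genes. The fit was tested on simulated data in which 200 of 12652 genes were changed, fewer than the 2515 called here. It recovered 43.5% of them at a log2 change of 0.5 and 85% at a log2 change of 1. In that setting many changes of 0.5 were thus missed. The bounds implied 14.6 to 17.5 fragments per FPKM and kilobase, so low values carry a large counting error.

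The members and lists were proposed with earlier results of these data known, although the rule for the members is their symbols alone. By rule, the text names the members, IKZF1, up to 5 called genes per list by absolute change, and the cytokine genes IL2, IFNG, IL4 and CD40LG. It also names the 5 genes most like NFATC2, and neighbours where a result turns on them. ORAI1, FKBP1A, PPIA, GSK3A, GSK3B and GATA3 were named outside this rule, as were genes under the filter. Some uncalled genes with larger changes were left out, such as AKAP5 (log2 change 0.52, limma adjusted p = 0.0612) and CAMK4 (0.41, limma adjusted p = 0.0609). Alternatives were the pseudocount, filter, scaling, variance model, replicate block, subtraction of the neighbours' shift, and each library left out.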

Additional observations from a re-analysis of the deposited data

How the results depend on the processing

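NFATC2 and RCAN1 kept their direction and their call in all 15 alternatives, with log2 changes of -2.38 to -1.56 and -0.49 to -0.40. The number of called members was 5 under median-ratio scaling, as NFATC1 (-0.40) and PPP3R1 (0.18) were then called. PPP3R1 was also called under quantile normalization (0.18), and NFATC1 with libraries scaled to a sum of 1000000 (-0.42). With 1 library left out, the change of NFATC1 ranged from -0.48 to -0.33 and was called only without IK-KO replicate 1, and that of PPP3CA ranged from 0.36 to 0.46 and was called only without wild type replicate 2. The cause was not tested. NFAT5 (-0.14 to 0.03), PPP3CB (-0.02 to 0.03) and PPP3CC (-0.03 to 0.15), none of them called in any alternative, took both signs. Over all genes, the called genes numbered 1692 to 2803, with 45.1% to 55.5% of them higher in IK-KO against 51.0% in the reported fit. Libraries of the same replicate number did not deviate together (r = 0.0669, 0.0248 and 0.00546), so the numbers were not taken to pair the samples. With the replicate block 3 members and 1805 genes were called, 1742 of them among the 2515 called without it, and 18 in place of 21 pathway genes. With 3 libraries a group and no counts, small changes such as those of NFATC3 and PPP3R1 are at the limit of what these data resolve, and a p that misses the threshold does not show equal levels.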

Other observations

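The tested genes whose log2(FPKM + 1) values ran most like those of NFATC2 over the 6 libraries were CASP1, PDLIM1, AQP3, FIRRE and IRX4, each with a Pearson r of 0.999. The 6 libraries form 2 separate groups, so r here reflects mainly the gap between groups and is a description. CASP1, the gene of an inflammatory caspase, measured 5.11, 5.59 and 5.26 FPKM in wild type and 0.101, 0 and 0.171 FPKM in IK-KO. PDLIM1, which encodes a PDZ and LIM domain protein of the cytoskeleton, had means of 5.995 and 0.197 FPKM. FIRRE, a long noncoding RNA of the X chromosome, had means of 8.57 and 0.140 FPKM, and IRX4, a homeobox gene, had means of 4.35 and 0.261 FPKM. AQP3, the gene of a water and glycerol channel, also fell, but kept a higher IK-KO level than the others. It measured 17.7, 18.8 and 18.5 FPKM in wild type and 7.60, 7.56 and 7.97 FPKM in IK-KO. These 5 genes lie on chromosomes 11, 10, 9, X and 5, and none of them lies on chromosome 20 with NFATC2.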
